A study of Mus musculus with 123 samples.

Results

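The clock output genes described here are *Tef*, *Hlf*, *Nfil3*, *Bhlhe40*, *Bhlhe41*, *Ciart*, *Rora*, *Usp2* and *Wee1*, which lie downstream of the circadian clock or feed back on it. Each was represented by the transcript cluster that carries its symbol alone in the platform annotation, and where a gene had several such clusters by the brightest one. All 9 genes were measured and passed the filter on low expression, and with them 10942 genes were tested. Their hepatic expression was compared between diets and strains and set against *Arntl*, the gene of the clock activator BMAL1. Each array (Affymetrix Mouse Gene 2.1 ST) held liver RNA of 1 female mouse, and the mice belonged to 22 strains of the Collaborative Cross (CC), which are inbred lines derived by crossing several founders. For 8 weeks 63 of them ate a high-protein (HP) diet and 60 a high-fat high-sucrose (HS) diet. There were 4 to 6 mice per strain, 2 or 3 for each strain and diet. All mice arrived at 6 to 9 weeks of age, ate a synthetic chow for 2 weeks before the experimental diets and were fasted for 4 h before the livers were taken, so no group ate chow throughout and males were not studied. The clock time at which each liver was taken is not given in the sources used here, and its part in any difference was not tested.

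The mammalian clock is a loop in which BMAL1 and CLOCK activate genes through a short DNA motif, the E-box, and the products of some of these genes repress their own activators. A second loop joins the nuclear receptors REV-ERB (*Nr1d1* and *Nr1d2*) and ROR (*Rora*), which repress or activate genes, *Arntl* among them, through ROR elements. Output genes carry the rhythm into physiology. In liver the PAR bZIP factors DBP, TEF and HLF activate detoxification genes through the D-box, and NFIL3 represses through the same motif. *Arntl* transcripts and the E-box driven transcripts peak at opposite ends of the day, so that in tissue from 1 moment their levels are usually inversely related.

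Promoters of 7 of the 9 genes were found in RefSeq (GRCm38.p6), as windows of 250 bases before to 50 bases after a transcription start. *Tef* had 2 such starts, 8741 bases apart. The windows come from the C57BL/6J reference, and the alleles that the CC strains carry were not examined. They were searched on both strands for the E-box CACGTG, the related CACGTT, the D-box TTATGTAA and the ROR element TAGGTCA, and no match overlapped another. The E-box was present in the windows of *Ciart*, *Tef* and *Bhlhe41*, whose transcripts moved against *Arntl*, and the ROR element was present in that of *Nfil3*, which moved with it. Over all 32851 promoter windows, 7.15% held CACGTG, 4.68% CACGTT, 0.938% TTATGTAA and 2.61% TAGGTCA. None of these motifs was found in the windows of *Hlf* and *Usp2*, whose transcripts also moved against *Arntl*, or in that of *Rora*. This says only that those letters are not within them. The whole *Ciart* window is shown because it holds 3 E-boxes, beginning 116, 58 and 44 bases before the start, at chr3:95882179-95882478 (minus strand). For the other genes the motif, in capitals, is shown with 30 bases on each side, each read 5′ to 3′ on the strand of the gene.
*Ciart*, E-boxes in capitals: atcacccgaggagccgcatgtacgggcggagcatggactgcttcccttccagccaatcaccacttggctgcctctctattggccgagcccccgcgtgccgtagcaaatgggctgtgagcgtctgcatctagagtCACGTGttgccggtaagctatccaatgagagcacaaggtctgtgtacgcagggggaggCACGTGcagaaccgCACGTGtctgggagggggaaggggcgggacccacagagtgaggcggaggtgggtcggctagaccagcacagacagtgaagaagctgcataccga
*Tef*, first start, chr15:81802516-81802581 (plus strand), E-box beginning 127 bases before the start: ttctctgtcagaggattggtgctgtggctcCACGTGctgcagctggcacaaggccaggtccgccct
*Tef*, second start, chr15:81811246-81811311 (plus strand), E-box beginning 138 bases before the start: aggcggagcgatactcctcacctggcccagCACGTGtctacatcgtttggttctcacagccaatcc
*Bhlhe41*, chr6:145865538-145865603 (minus strand): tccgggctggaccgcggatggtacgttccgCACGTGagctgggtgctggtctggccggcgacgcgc
*Nfil3*, chr13:52981015-52981081 (minus strand), ROR element on the opposite strand, beginning 12 bases before the start: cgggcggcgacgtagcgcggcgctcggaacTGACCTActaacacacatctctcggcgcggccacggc

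Values are log2 intensities from robust multiarray averaging (RMA), and the mean of all cluster medians, 4.08, served as the level above which a cluster counted as expressed. Array medians lay between 2.97 and 3.16. The summed level of 7 hepatocyte markers (log2 of the sum of linear values) lay between 14.8 and 15.2 in HP mice and between 14.8 and 15.2 in HS mice. Kupffer cell and macrophage markers moved with *Arntl* within strains. The slope on *Arntl* was positive and passed the test for 6 of the 8 markers, while 21.4% of all genes passed it in either direction. The summed level of these markers (log2 of the sum of linear values) lay between 9.02 and 11.5 in HP mice and between 9.91 and 12.1 in HS mice. Whether these cells contributed to any result below was not tested. In bulk tissue, fewer cells of a type and less RNA per cell cannot be told apart. A CC059/TauUnc mouse on the HS diet resembled CC035/Unc (mean correlation of centred values 0.58) more than its own strain (0.097), and a CC071/TauUnc mouse on the HP diet had an *Xist* value of 2.72, against 9.16 to 10.6 in the other mice. Calls, signs and named strain places that change without these 2 mice are given with both values. Other values, such as spans of strain means and differences by mouse number, include both mice.

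Mice of 1 strain that differed in *Arntl* were compared first, since they share a genome. *Arntl* itself ran from 3.39 to 7.88 in HP mice, with a median of 5.55, and from 3.79 to 7.95 in HS mice, with a median of 5.99. Within a strain its range was between 0.52 and 3.74 log2 units, the widest in CC045/GeniUnc. Against this, 7 of the 9 output genes fell as *Arntl* rose, *Nfil3* rose with it, and the slope of *Rora* did not pass the test. With strain as a block, the slope on *Arntl* passed an adjusted *p* of 0.05 for 8 of the 9 genes, against 21.4% of all 10941 genes tested (limma, Benjamini-Hochberg adjustment over all genes). The median absolute correlation of strain-centred values with *Arntl* was 0.76 over the 9 genes and 0.13 over all genes. For the 9 correlations that follow, *p* values come from 100000 shuffles of *Arntl* among mice of the same strain (2-sided), which can give no *p* below 1e-05.

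The 6 mice of CC045/GeniUnc show the pattern in single animals. *Arntl* was 3.78, 4.09 and 7.52 in the HP mice and 6.05, 6.31 and 6.79 in the HS mice. In the same order of mice, *Usp2* was 8.16, 8.64 and 4.43 in the HP mice and 6.26, 5.28 and 5.26 in the HS mice. *Nfil3* was 5.67, 5.08 and 6.59 in the HP mice and 6.60, 6.37 and 6.49 in the HS mice. The HP mouse with high *Arntl* was thus lowest of the 6 in *Usp2* and within the HS range in *Nfil3*, away from both other HP mice of its strain. Over all strains, the mouse with the lowest *Arntl* (3.39, CC002/Unc, HP) had *Ciart* at 6.58 and *Nfil3* at 5.13, and the mouse with the highest *Arntl* (7.95, CC004/TauUnc, HS) had *Ciart* at 2.87 and *Nfil3* at 6.93.

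Among the D-box factors, *Tef* followed *Arntl* closely and *Hlf* loosely. *Tef*, a PAR bZIP activator, ran from 4.22 to 7.24 in HP mice (median 6.18) and from 3.85 to 7.23 in HS mice (median 5.79). It changed by −0.59 ± 0.029 (SE) log2 units for each unit of *Arntl*, with an adjusted *p* of 5.05e-34 (limma). Its strain-centred correlation was *r* = −0.89 (rho = −0.90, permutation *p* = 1e-05 for both, n = 63 HP and 60 HS mice), and the slope was negative in 22 of 22 strains. *Hlf*, the PAR bZIP factor first known from leukaemia, ran from 5.27 to 7.53 in HP mice (median 6.52) and from 5.57 to 7.58 in HS mice (median 6.53). Its slope was −0.22 ± 0.034 (SE), its correlation *r* = −0.55 (rho = −0.55, permutation *p* = 1e-05 for both), and 20 of 22 strains had a negative slope. The squared correlation with *Arntl* was 79.8% for *Tef* and 30.1% for *Hlf*. *Nfil3*, the repressor that competes with both at the D-box, had the opposite sign. It ran from 4.83 to 6.97 in HP mice (median 5.50) and from 5.14 to 7.01 in HS mice (median 5.94). It rose by 0.36 ± 0.031 (SE) for each unit of *Arntl*, with an adjusted *p* of 3.46e-18 (limma). Its correlation was *r* = 0.76 (rho = 0.73, permutation *p* = 1e-05 for both), and the slope was positive in 22 of 22 strains. The macrophage markers moved the same way as *Nfil3*, with a correlation of their summed level with *Arntl* of 0.35 within strains, and their part in this slope was not tested. *Nfil3* also ran against both activators within strains, with *r* = −0.71 to *Tef* and −0.31 to *Hlf*.

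The repressors of the E-box differed in how tightly they followed *Arntl*. *Ciart* (CHRONO), which represses BMAL1 and CLOCK, ran from 2.76 to 8.38 in HP mice (median 5.36) and from 2.87 to 8.40 in HS mice (median 4.56). It changed by −1.16 ± 0.067 (SE) for each unit of *Arntl* (adjusted *p* = 3.18e-29, limma), with *r* = −0.86 (rho = −0.86, permutation *p* = 1e-05 for both). The slope of *Ciart* was negative in 22 of 22 strains. Its promoter window holds 3 E-boxes, but that of *Usp2*, whose slope was also −1.16, holds none. Whether the E-boxes bear on the slope was not tested. *Bhlhe40* (DEC1), a basic helix-loop-helix repressor, had HP mice between 7.40 and 9.83 (median 9.04) and HS mice between 7.99 and 9.72 (median 9.04). Its slope was −0.27 ± 0.033 (SE), with *r* = −0.63 (rho = −0.62, permutation *p* = 1e-05 for both) and 20 of 22 strains negative. *Bhlhe41* (DEC2), its close relative, lay below the expression level in 105 mice and passed the filter only because 14.6% of mice were above it. Its values were 2.14 to 5.40 in HP mice (median 2.98) and 1.97 to 5.19 in HS mice (median 2.70). The slope of −0.37 ± 0.055 (SE), with *r* = −0.56 (rho = −0.57, permutation *p* = 1e-05 for both) and 20 of 22 strains negative, is thus measured close to the floor of the array, where differences are compressed. *Ciart* was below the expression level in 37 mice, *Wee1* in 15 mice and *Usp2* in 4 mice.

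The effector genes *Usp2* and *Wee1* followed *Arntl* as closely as *Tef*. *Usp2*, a deubiquitinating enzyme with strong rhythms in liver, ran from 3.84 to 9.25 in HP mice (median 6.29) and from 3.13 to 9.03 in HS mice (median 5.39). It changed by −1.16 ± 0.055 (SE) for each unit of *Arntl* (adjusted *p* = 6.32e-36, limma), with *r* = −0.90 (rho = −0.90, permutation *p* = 1e-05 for both). Only 1 other gene of the 10941 had a smaller *p* for this slope than *Usp2*. *Wee1*, the kinase that holds back entry into mitosis by inhibiting CDK1, ran from 3.58 to 7.50 in HP mice (median 5.59) and from 3.01 to 7.12 in HS mice (median 5.01). Its slope was −0.82 ± 0.044 (SE, adjusted *p* = 6.76e-32, limma), with *r* = −0.88 (rho = −0.88, permutation *p* = 1e-05 for both). For both genes the slope was negative in 22 of 22 strains. Of the other cell cycle genes listed beside *Wee1*, 2 of 8 passed the filter, and neither *Ccnb2*, a mitotic cyclin (slope 0.054, adjusted *p* = 0.541), nor *Mki67*, a proliferation marker (slope 0.084, adjusted *p* = 0.338), passed the test.

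*Rora*, the ROR receptor that activates *Arntl*, varied least. Its values were 5.45 to 6.37 in HP mice (median 6.05) and 5.43 to 6.27 in HS mice (median 5.98), a 1.91-fold range over all mice. The slope on *Arntl* was −0.029 ± 0.015 (SE) with an adjusted *p* of 0.178 (limma). The strain-centred correlation was *r* = −0.19 (permutation *p* = 0.0373) and rho = −0.21 (permutation *p* = 0.0288), with 15 of 22 strains negative, and it was −0.23 in HP mice and 0.053 in HS mice. Whether the slope of *Rora* is 0 cannot be read from this, since its interval ran from −0.059 to 0.0011.

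**Figure D1:**
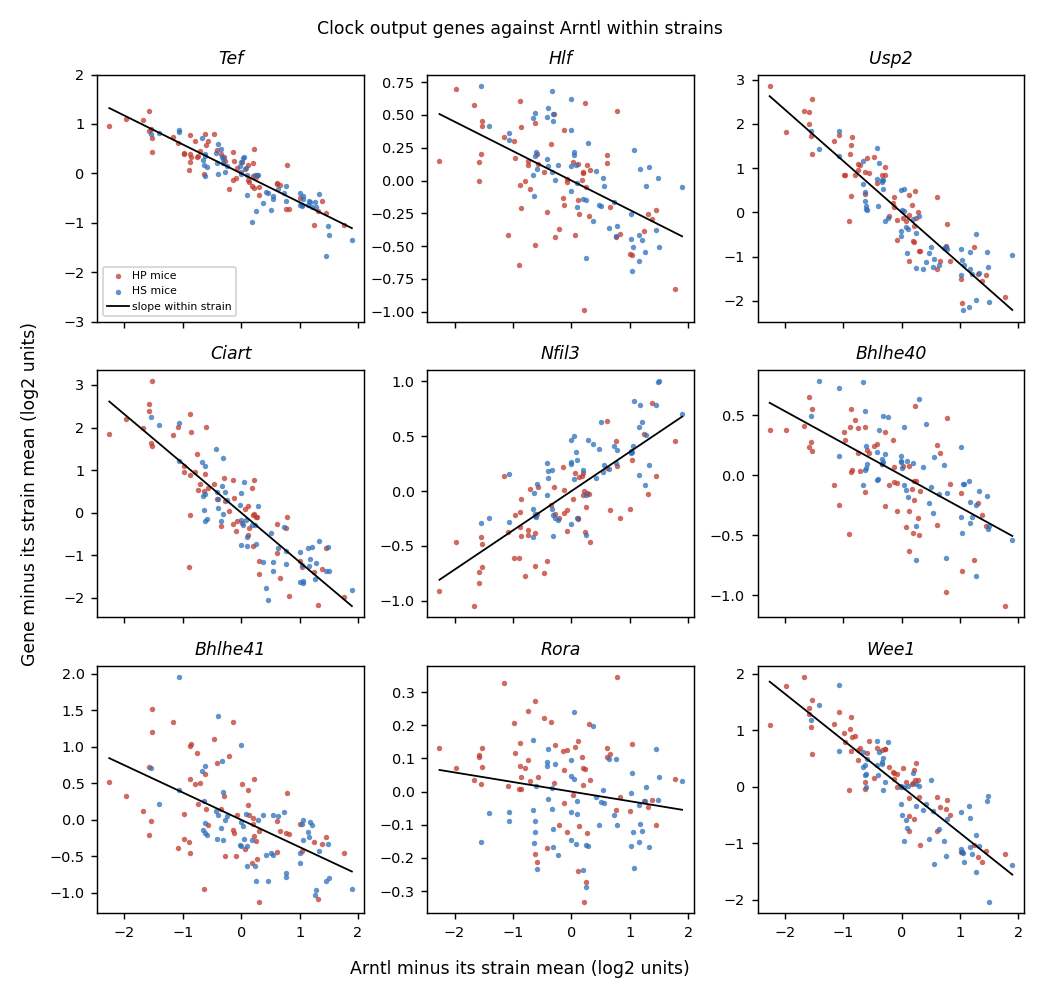
Each panel plots 1 gene minus its strain mean (log2 units) against *Arntl* minus its strain mean for each mouse, HP mice in red and HS mice in blue, with the slope within strain as a line. *Usp2* and *Ciart* fell by 1.16 log2 units for each unit of *Arntl*, *Nfil3* rose by 0.36 and *Rora* is nearly flat.

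The order of the slopes was *Usp2*, *Ciart*, *Wee1*, *Tef*, *Bhlhe41*, *Bhlhe40*, *Hlf*, *Rora* and *Nfil3*, the most negative first. Slopes of different genes come from different probes, so their order holds for the array scale only. Neighbours were compared by regressing the difference of both genes on *Arntl* with strain as a block. *Usp2* and *Ciart* did not differ beyond their error (difference −0.0078, 95% interval from −0.11 to 0.098), nor did *Bhlhe41* and *Bhlhe40* (−0.11, from −0.21 to 0.00031) or *Bhlhe40* and *Hlf* (−0.043, from −0.11 to 0.026). For the other 5 neighbouring pairs the interval lay on 1 side of 0.

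The relation held on each diet taken alone. The same 8 genes passed the test in HP mice only, where 9.33% of all genes did, and in HS mice only, where 3.09% did. The slope of *Tef* was −0.54 ± 0.042 in HP mice and −0.66 ± 0.054 in HS mice, and that of *Usp2* was −1.21 ± 0.075 in HP mice and −1.07 ± 0.098 in HS mice (SE). The difference of the slopes between diets was tested as an interaction, and 0 of the 9 genes passed, against 0.0366% of all genes (limma). At an unadjusted *p* of 0.05 the difference passed for 2 of the 9, *Tef* (0.12 ± 0.051, SE, HP minus HS, adjusted *p* = 0.550) and *Rora* (−0.061 ± 0.026, SE, adjusted *p* = 0.532). Without the 2 mice farthest from the median of strain-centred *Arntl*, a CC063/Unc and a CC045/GeniUnc mouse both on HP, the correlations ran from −0.89 for *Usp2* and *Tef* to 0.74 for *Nfil3*.

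*Nr1d1*, the gene of the repressor REV-ERBα, correlated only weakly with *Arntl* within strains (*r* = −0.32). It was added beside *Arntl*, in a fit chosen after the data had been seen. With *Arntl* held, *Nr1d1* had a positive slope past the threshold for *Tef*, *Hlf*, *Bhlhe40* and *Bhlhe41*, 4 of the 9 genes, against 42.1% of all 10940 genes tested, so the share itself is near that background. The slopes were 0.33 ± 0.050 for *Tef* (adjusted *p* = 1.29e-07), 0.34 ± 0.060 for *Hlf* (3.28e-06), 0.26 ± 0.062 for *Bhlhe40* (0.000386) and 0.37 ± 0.11 for *Bhlhe41* (0.00316, all limma, SE). Without strain CC024/GeniUnc, *Bhlhe41* lost its call (adjusted *p* = 0.0677) and *Nfil3* gained one (0.0350), so the count stayed at 4 with other members. The slopes of *Usp2* (−0.029 ± 0.11), *Ciart* (0.051 ± 0.14) and *Wee1* (−0.0049 ± 0.089) were near 0, and those of *Rora* (0.028 ± 0.031) and *Nfil3* (−0.13 ± 0.061, adjusted *p* = 0.0784) did not pass. The 3 genes steepest on *Arntl* were thus among the 5 whose slope on *Nr1d1* did not pass, although the intervals of *Usp2* (from −0.25 to 0.19) and *Ciart* (from −0.22 to 0.32) reach values near those of the 4 genes called.

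**Figure D2:**
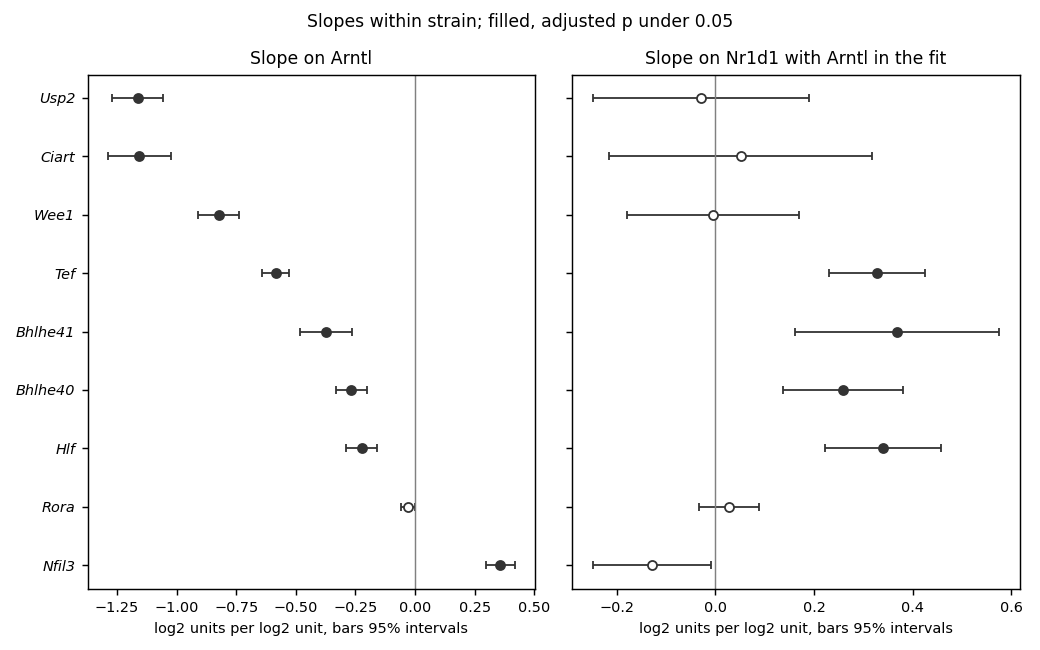
The left panel gives each gene's slope on *Arntl* within strain and the right panel its slope on *Nr1d1* with *Arntl* in the fit (log2 units per log2 unit, bars 95% intervals, filled where the adjusted *p* was under 0.05). *Usp2*, *Ciart* and *Wee1* lead on the left and lie near 0 on the right, while *Hlf* is −0.22 on the left and 0.34 on the right.

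Diet was compared next, with HP minus HS as the difference. *Nfil3* was lower and *Rora* slightly higher in HP livers, and 5 of the 7 genes that fell as *Arntl* rose had higher means in HP livers without passing the test. Fitted on diet alone, 2 of the 9 genes passed, against 11.4% of all 10942 genes (limma), so the share called is near the background. *Nfil3*, with medians of 5.50 in HP and 5.94 in HS mice, averaged 5.62 ± 0.48 in HP mice (SD, n = 63) and 6.00 ± 0.47 in HS mice (SD, n = 60). The groups overlapped, and the difference of −0.38 ± 0.085 (SE) had an adjusted *p* of 0.000635 (limma) and was negative in 17 of 22 strains. *Rora* averaged 6.05 ± 0.19 in HP mice and 5.95 ± 0.15 in HS mice (SD), a difference of 0.092 ± 0.032 (SE, adjusted *p* = 0.0427, limma), positive in 18 of 22 strains. The call for *Rora* was lost in 12 of 22 fits that left out 1 strain each (CC001/Unc, CC002/Unc, CC008/GeniUnc, CC011/Unc, CC019/TauUnc, CC027/GeniUnc, CC028/GeniUnc, CC030/GeniUnc, CC032/GeniUnc, CC035/Unc, CC041/TauUnc or CC071/TauUnc, with adjusted *p* of 0.0203 to 0.0915 over all 22 fits) and without the expression filter (0.0857), whereas that for *Nfil3* was kept in all of these. Kupffer cell and macrophage markers were also lower in HP livers, with 3 of 8 past the threshold, 0 of 8 higher and a median difference of −0.25. With strain as a block, 7 of 8 were lower past the threshold and 0 higher (median −0.26), while 23.2% of all genes passed that fit in either direction. Of 6 stellate cell markers, 2 were lower and 0 higher in both fits. The part of these cells in the difference of *Nfil3* was not tested.

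Of the 7 genes that fell as *Arntl* rose, *Tef*, *Usp2*, *Ciart*, *Wee1* and *Bhlhe41* had higher means in HP livers, by values that did not pass, and *Hlf* and *Bhlhe40* did not. *Usp2* averaged 6.43 ± 1.51 in HP mice and 5.77 ± 1.20 in HS mice (SD), a difference of 0.66 ± 0.24 (SE, adjusted *p* = 0.0592). *Ciart* averaged 5.30 ± 1.50 in HP mice and 4.70 ± 1.23 in HS mice (0.60 ± 0.25, SE, adjusted *p* = 0.0972). *Wee1* (0.47 ± 0.18, adjusted *p* = 0.0691) and *Tef* (0.33 ± 0.12, adjusted *p* = 0.0623) missed the threshold by similar margins. The differences of *Bhlhe41* (0.22 ± 0.14, adjusted *p* = 0.354), *Hlf* (−0.017 ± 0.082) and *Bhlhe40* (−0.00072 ± 0.084) lay further from it. *Tef* and *Usp2* did pass without the 2 mice that stood apart (adjusted *p* = 0.0438 and 0.0418, limma). *Tef* also passed without CC006/TauUnc, CC030/GeniUnc or CC037/TauUnc (lowest adjusted *p* = 0.0400), *Usp2* without CC011/Unc, CC019/TauUnc or CC059/TauUnc (0.0375) and *Wee1* without CC004/TauUnc, CC011/Unc or CC059/TauUnc (0.0395). *Arntl* itself averaged 5.49 ± 1.23 in HP mice and 5.97 ± 0.92 in HS mice (SD). Its difference of −0.48 did not pass with diet alone (adjusted *p* = 0.0942) but passed with strain as a block (0.0299, limma).

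**Figure D3:**
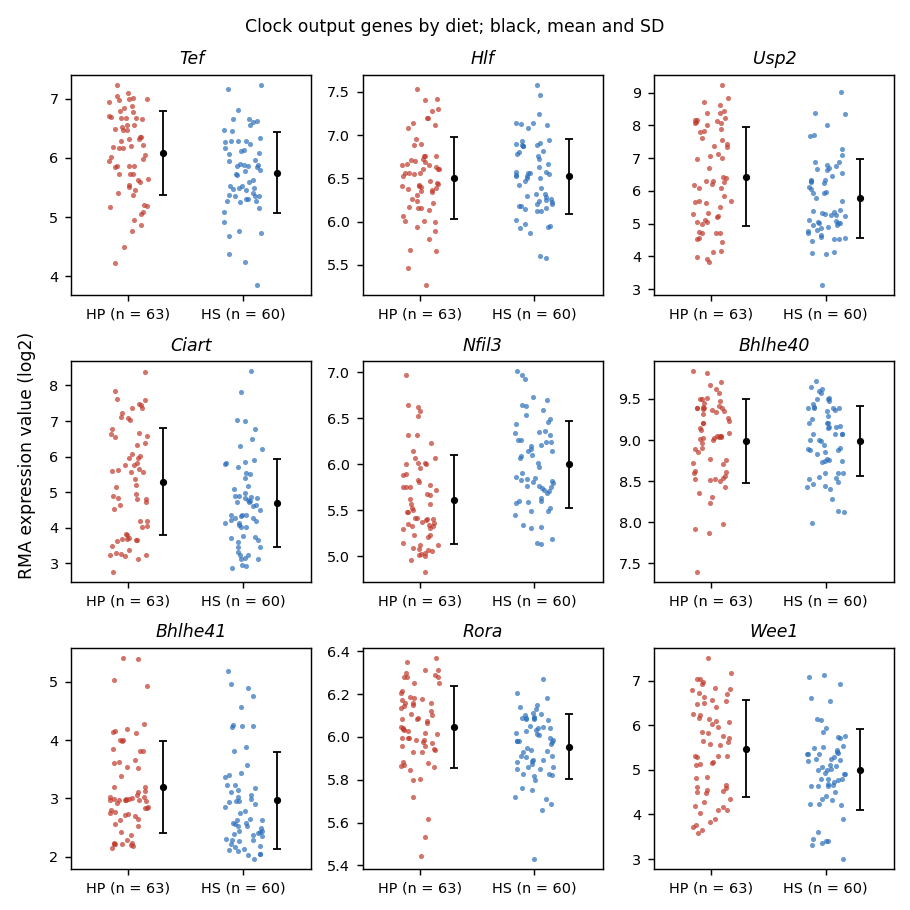
Each panel shows the RMA values (log2) of 1 gene in 63 HP mice at the left and 60 HS mice at the right, 1 point per mouse, with the mean and SD in black. *Nfil3* averages 5.62 in HP mice and 6.00 in HS mice, and the groups overlap in every gene.

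The calls by diet depended on whether strain and *Arntl* were in the fit. With strain as a block, 6 of the 9 genes passed, against 23.2% of all genes (limma). *Tef* (adjusted *p* = 0.0198), *Usp2* (0.0167), *Ciart* (0.0416) and *Wee1* (0.0186) rose in HP livers in this fit beside *Rora*, and *Nfil3* fell. With *Arntl* added as a covariate, 2 of the 9 passed, against 18% of all genes, and these were again *Nfil3* and *Rora*. The difference of *Usp2* was then 0.12 ± 0.099, that of *Ciart* 0.058 ± 0.12, that of *Wee1* 0.088 ± 0.079 and that of *Tef* 0.054 ± 0.053 (SE), none past the threshold. *Nfil3* kept −0.22 ± 0.051 (SE, adjusted *p* = 0.000664) and *Rora* 0.082 ± 0.027 (SE, adjusted *p* = 0.0208). *Bhlhe40* and *Hlf*, whose differences had been near 0, had lower means in HP livers at equal *Arntl*, which did not pass the test (−0.15 ± 0.058, adjusted *p* = 0.0532, and −0.14 ± 0.060, adjusted *p* = 0.0980). The interaction of strain and diet passed for 0 of the 9 genes, also at an unadjusted *p* of 0.05, against 0.0183% of all genes (F test of limma).

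**Figure D4:**
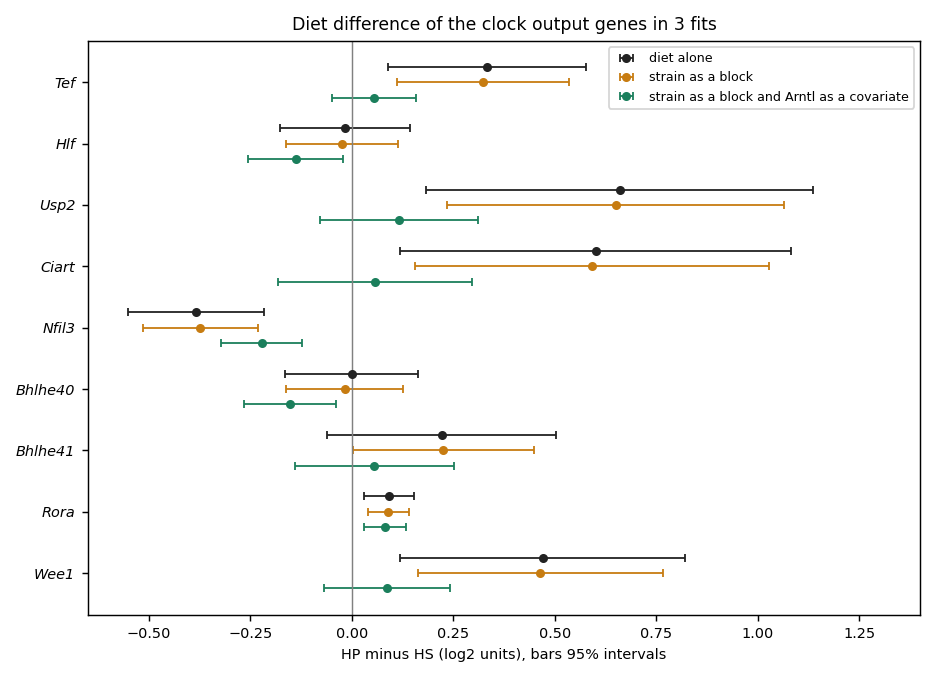
For each gene the difference HP minus HS (log2 units, bars 95% intervals) is shown with diet alone (black), with strain as a block (orange) and with strain as a block and *Arntl* as a covariate (green). The differences of *Tef*, *Usp2*, *Ciart* and *Wee1* lie near 0 in the third fit, while *Nfil3* keeps −0.22 and *Rora* 0.082.

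Mouse numbers in the labels fall into 5 ranges, each with mice of both diets, and they are not stated to be batches. As a block they left the calls at 2 of 9 genes, the same *Nfil3* and *Rora*, against 11.4% of all genes. The difference of *Nfil3* was negative in each range (−0.18 to −0.49) and that of *Rora* positive in each (0.062 to 0.20). Among the genes that fell as *Arntl* rose, *Usp2* (0.088 to 1.17) and *Ciart* (0.082 to 1.21) were positive in each range. *Tef*, *Hlf*, *Bhlhe40*, *Bhlhe41* and *Wee1* changed sign between ranges. In the range of the lowest numbers *Arntl* differed by −0.83 and *Wee1* by 0.74, and in the next range *Arntl* differed by 0.060 and *Wee1* by −0.14. In the third range *Arntl* differed by 0.088 and *Wee1* by −0.12, and in the fourth by −0.72 and 0.88. In the range of the highest numbers they were −0.57 and 0.64. The 3 ranges with a lower *Arntl* on HP were thus those with a higher *Wee1* on HP. *Tef* (0.12) and *Bhlhe41* (0.29) were higher on HP in the third range too. The number of mice per range and diet was between 5 and 19.

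All 9 genes differed between strains, but so did 81.3% of all genes (F test of limma), so the count is near the background. *Bhlhe41* had the highest F of the 9 (4.58, adjusted *p* = 2.49e-07) and *Ciart* the lowest (2.18, adjusted *p* = 0.00757). *Ciart* lost its call without strain CC059/TauUnc (adjusted *p* = 0.0907). Strain means, each the mean of its HP and HS means, spanned 3.02 log2 units for *Ciart* and 2.99 for *Usp2*, against within-strain SDs of 1.29 and 1.24. For *Rora* they spanned 0.50, from 5.72 in CC024/GeniUnc to 6.22 in CC045/GeniUnc, with a within-strain SD of 0.15. CC059/TauUnc was highest in *Tef* (6.82), *Ciart* (6.89), *Bhlhe40* (9.54) and *Wee1* (6.71) and lowest in *Nfil3* (5.22), and it held all 5 of these places without its mouse that resembled another strain (6.70, 6.55, 9.54, 6.61 and 5.27). CC032/GeniUnc, highest in *Arntl* (7.04), was lowest in *Tef* (5.21), *Hlf* (6.08), *Bhlhe40* (8.37) and *Bhlhe41* (2.38) and highest in *Nfil3* (6.51).

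Across the 22 strain means the same signs were seen as within strains. Each mean rests on 4 to 6 mice, so variation of *Arntl* within strains (SD 0.96) also enters the means. These correlations are thus not independent of those within strains. *Arntl* ran from 4.38 in CC019/TauUnc to 7.04 in CC032/GeniUnc. The strongest relation was that of *Usp2* (*r* = −0.93, rho = −0.93), followed by *Tef* (*r* = −0.90, rho = −0.88), both with a permutation *p* of 1e-05, the smallest that 100000 permutations of the strains can give. *Nfil3* was positive (*r* = 0.84, rho = 0.77), and *Wee1* (*r* = −0.83, rho = −0.88), *Ciart* (*r* = −0.79, rho = −0.76), *Bhlhe40* (*r* = −0.73, rho = −0.76) and *Hlf* (*r* = −0.63, rho = −0.65) were negative. The permutation *p* of *r* for these 5 genes was at most 0.00168. *Bhlhe41* (*r* = −0.53, rho = −0.49, permutation *p* = 0.0112 and 0.0218) and *Rora* (*r* = −0.48, rho = −0.43, permutation *p* = 0.0231 and 0.0488) were weaker. Without CC019/TauUnc and CC032/GeniUnc, the strains farthest from the median of *Arntl*, *r* was −0.91 for *Usp2*, −0.89 for *Tef* and 0.78 for *Nfil3*. For *Bhlhe41* it was −0.30, so that relation was weaker without these 2 strains. With 1 strain left out at a time it ran from −0.61 to −0.39. Fitted over all genes on the strain means, a fit added after the data were seen, the slope on *Arntl* passed for 6 of the 9 genes, against 0.859% of all genes (limma), and *Hlf* (adjusted *p* = 0.0824), *Bhlhe41* (0.193) and *Rora* (0.320) did not pass. Within each diet the correlations kept their signs, and the lowest absolute value was that of *Rora* over means of HS mice (−0.12).

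**Figure D5:**
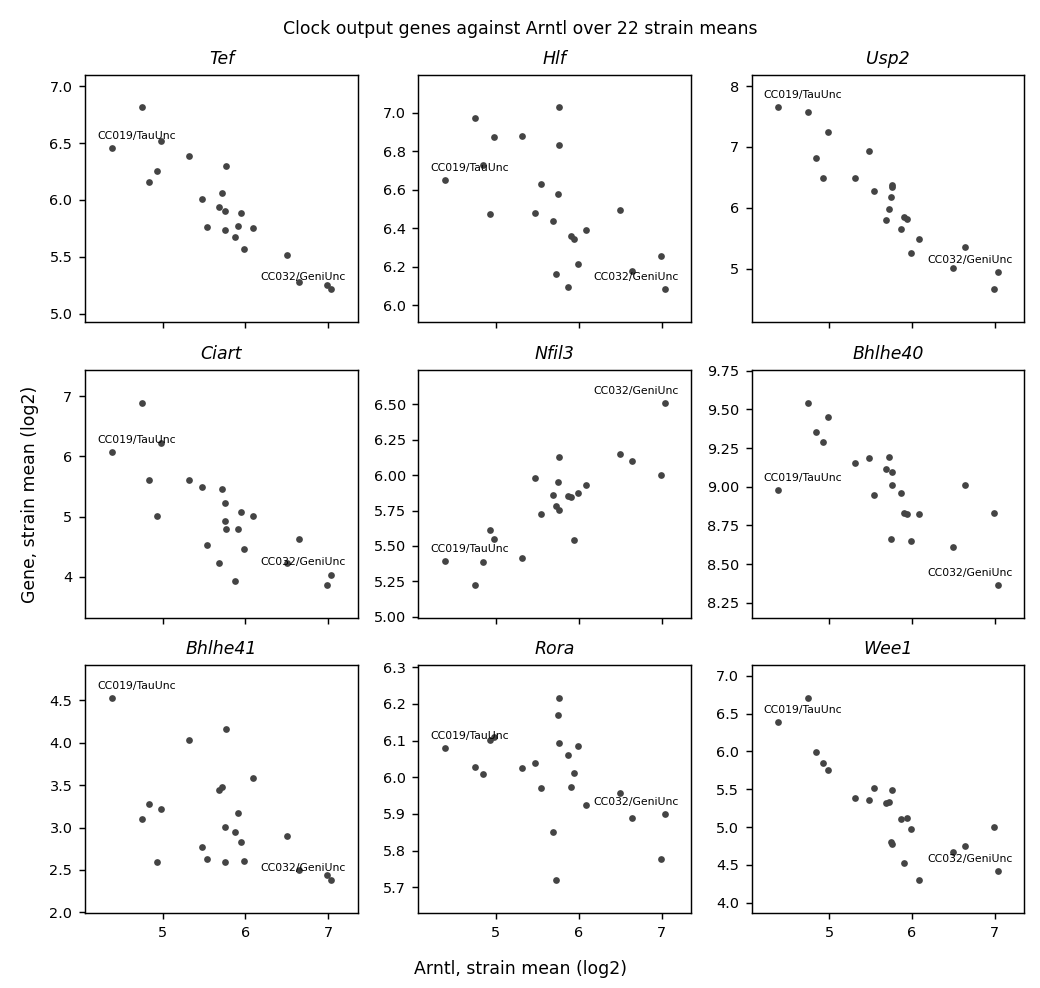
Each panel plots the mean of 1 gene (log2, mean of the HP and HS means) against that of *Arntl* for 22 strains, with the strains lowest (CC019/TauUnc) and highest (CC032/GeniUnc) in *Arntl* named. *Usp2* and *Tef* fall along a line (*r* = −0.93 and −0.90), *Nfil3* rises (*r* = 0.84), and *Bhlhe41* scatters, with CC019/TauUnc highest at 4.52.

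Strains still differed at equal *Arntl*, as they did for most genes. With *Arntl* as a covariate all 9 genes still passed the F test, against 80.5% of all genes (limma), so the count is near the background. The F of *Ciart* (3.48), *Wee1* (3.97) and *Bhlhe41* (4.94) was higher than without the covariate, and that of *Usp2* (1.78) and *Nfil3* (1.85) was lower. After strain means were moved to the average *Arntl* along the within-strain slope, *Bhlhe41* was highest in CC030/GeniUnc (4.17) and CC019/TauUnc (4.02) and lowest in CC002/Unc (2.30). Since *Bhlhe41* passed the filter only through its high values, its F and this order are not independent of the filter. *Wee1* was lowest in CC040/TauUnc (4.60) and highest in CC006/TauUnc (6.05), and *Ciart* was lowest in CC002/Unc (4.10) and highest in CC059/TauUnc (5.77). Without the 2 mice that stood apart, the ends for *Ciart* were CC008/GeniUnc (4.09) and CC037/TauUnc (5.66), with CC059/TauUnc at 5.54, while the strains named here for the other genes held their places. *Hlf* was again highest in CC030/GeniUnc (7.04), which had the second highest mean of *Bhlhe41* (4.16) before the adjustment.

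Within strains the output genes also moved with each other. *Usp2* and *Ciart* were the closest pair (*r* = 0.92), followed by *Tef* and *Usp2* and by *Usp2* and *Wee1* (*r* = 0.87 each). *Hlf* had *r* = 0.65 with *Tef* and with *Bhlhe40*, and −0.55 with *Arntl*. *Rora* reached at most 0.26, with *Tef* and with *Usp2*. These values describe strain-centred arrays and are not independent of the shared relation to *Arntl*. The gene outside the set most like each member was taken by the highest absolute correlation. For *Tef* it was *Per3*, a period gene of the clock (*r* = 0.94), and for *Bhlhe40* (*r* = 0.74) and *Bhlhe41* (*r* = 0.62) it was *Dbp*, the third PAR bZIP factor. *Usp2* (*r* = −0.90) and *Wee1* (*r* = −0.88) were closest to *Arntl* itself, *Ciart* to *Clock* (*r* = −0.88) and *Nfil3* to *Nr1d2*, the REV-ERBβ gene (*r* = −0.76). For *Hlf* it was *Mtss1* (*r* = 0.77), an actin-binding protein, and for *Rora* it was *Lrp6* (*r* = 0.65), a Wnt co-receptor, so the nearest gene of these 2 was not on the core clock list.

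Other genes of the clock, listed with earlier results of these data known, gave the setting. Of 12 core clock genes listed 10 passed the filter, and the slope on *Arntl* passed for all 9 other than *Arntl*, with 3 positive and 6 negative. The partners of BMAL1 rose with it, *Clock* by 0.29 ± 0.017 and *Npas2* by 0.97 ± 0.053 (SE), while *Per3* (−0.99 ± 0.046) and *Dbp* (−0.96 ± 0.056) fell. The slope of *Nr1d1* was −0.16 ± 0.048 (adjusted *p* = 0.00808). Of 10 listed genes described as targets of the PAR bZIP factors, 8 passed the filter, 6 fell as *Arntl* rose and none rose. Over all 10941 genes tested, the slope passed for 21.4%, in either direction. *Alas1*, the first enzyme of haem synthesis, changed by −0.52 ± 0.048, *Cyp2a5*, a cytochrome P450, by −0.49 ± 0.053 and *Cyp7a1*, the rate-limiting enzyme of bile acid synthesis, by −0.54 ± 0.069 (SE). *Cyp2a5* was also higher in HP livers (0.70, adjusted *p* = 0.000162, limma), while the other 7 targets did not pass with diet alone, where 11.4% of all genes did. With strain as a block, 1 of the 8 targets was higher and 1 lower past the threshold, against 23.2% of all genes in either direction. Of 14 other rhythmic liver genes 9 fell and 2 rose as *Arntl* rose, with *Gys2*, the liver glycogen synthase (−0.34 ± 0.020), *Coq10b* (−0.59 ± 0.039) and *Avpr1a*, a vasopressin receptor (0.34 ± 0.029), having the smallest *p*.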

How the data were processed

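The authors extracted RNA from livers, hybridized it to Affymetrix Mouse Gene 2.1 ST arrays and made log2 values by robust multiarray averaging (RMA, with sketch-quantile normalization and median polish). Affymetrix Expression Console (submitters' processing notes) and the affy package (the study's methods) are named for this step, without versions. Before deposit, the authors left out arrays that each of their quality methods marked. The deposited table holds log2 values of 41345 transcript clusters in 63 HP and 60 HS mice, and 0 columns lacked a mouse. Its unit was checked on the values. Arrays have no read depth, and their number limits the precision.

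Clusters with 1 symbol in the platform annotation (23521 of 41345, with 1820 naming several and 16004 none) were kept where their median, or their value in over 12.5% of mice, exceeded the mean of all cluster medians. The brightest cluster stood for each gene, which left 10942 genes. *Tef* had a second, dim cluster (mean 3.12). Each other gene had 1.

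The fits used limma 3.58.1 in R 4.3.3 over all genes, with Benjamini-Hochberg adjustment over all of them and a threshold of 0.05. The terms were diet, strain (F test), strain by diet (F test), *Arntl* with strain as a block, and its interaction with diet. Groups came from the labels. Each array was a separate mouse. The 5 ranges of mouse numbers were set after the data had been seen, and a week variable that the methods name is not in the labels. Permutation tests (numpy 2.4.6, 100000 draws) were 2-sided. The fits of the terms named above were tested on simulated data, and the other fits, the permutation tests and the motif search were not. Motifs were searched in RefSeq promoter windows (GRCm38.p6). The alternatives were other scalings, filters, variance models, covariates and mice left out. The 9 genes, the gene lists and the tests were chosen with earlier results of these data known. The named genes are these 9, *Arntl*, the core clock list, the gene most correlated with each member, and up to 3 genes of each other list with the smallest *p* for the *Arntl* slope. *Xist* was named outside this rule, after its values were seen.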

Additional observations from a re-analysis of the deposited data

Results flagged for a closer look

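In 12 of the combinations of the 9 genes with the 22 strains, 1 mouse lay further from the others of its strain, relative to the strain's range, than Dixon's 95% critical value allows. Chance marks about 1 in 20 such groups, which is 9.9 of these combinations, so the number is near what chance gives.

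*Bhlhe41* accounted for 6 of them, each a mouse above the others of its strain. They were an HP mouse of CC001/Unc at 4.15 (others 2.18 to 2.59), an HP mouse of CC002/Unc at 3.81 (2.12 to 2.74), an HP mouse of CC006/TauUnc at 2.84 (2.21 to 2.44), an HS mouse of CC011/Unc at 4.96 (2.05 to 2.85), an HP mouse of CC032/GeniUnc at 3 (2.10 to 2.43) and an HP mouse of CC063/Unc at 3.13 (2.37 to 2.50). In CC001/Unc, CC002/Unc, CC032/GeniUnc and CC063/Unc the same mouse had the lowest *Arntl* of its strain.

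The same CC001/Unc mouse had *Ciart* at 7.62 (others 2.91 to 4.62), with *Arntl* at 4.01 (others 4.92 to 6.92). *Nfil3* was 6.36 in an HS mouse of CC071/TauUnc (others 5.64 to 5.83), which had the highest *Arntl* of its strain (7.19, others 5.04 to 6.57). *Hlf* was 6.22 in an HS mouse of CC019/TauUnc (others 6.65 to 6.80), 6.87 in an HS mouse of CC040/TauUnc (6.21 to 6.39) and 6.88 in an HS mouse of CC071/TauUnc (6.16 to 6.42). *Rora* was 6.37 in an HP mouse of CC041/TauUnc (others 5.89 to 6.01).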

How the results depend on the processing

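The slope on *Arntl* within strains called 8 of the 9 genes under each alternative tried, including *Npas2* or *Clock* in place of *Arntl* and each strain left out (8 to 8). The count by diet was less stable. It was 2 with diet alone, 1 without the expression filter, 4 without the 2 mice that stood apart, and 6 with array weights, with strain as a block or with strain and ranges of mouse numbers as blocks, and 1 to 4 with 1 strain left out. The cause was not tested. The count by strain was 8 to 9 with 1 strain left out, and 8 with the dim cluster of *Tef*, which lost its call (F = 1.25, adjusted *p* = 0.247, limma). That of *Nr1d1* was 4 to 4, with *Nfil3* in place of *Bhlhe41* without CC024/GeniUnc, and 5 with *Dbp* in its place, where *Nfil3* was added (adjusted *p* = 0.0375). The 2 interactions gave 0 to 0.

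Signs turned for the values that follow, none of them past the threshold in the fits reported. The diet difference of *Bhlhe40* was 0.0030 with arrays centred on their medians, 0.0123 with array weights and 0.0016 without the 2 mice, and −0.0216 to 0.0211 with 1 strain left out. That of *Hlf* was 0.0178 with array weights and 0.0050 without the 2 mice, and −0.0402 to 0.00492 with 1 strain left out. The slope of *Rora* was 0.0312 in HS mice only. The slope difference of *Tef* was −0.0305 with its dim cluster. The slope on *Nr1d1* was 0.0141 for *Wee1* without the 2 mice, and with *Dbp* in its place 0.0868 for *Wee1* and 0.136 for *Usp2*. With 1 strain left out, the slope difference was −0.0985 to 0.0117 for *Usp2*, −0.0556 to 0.0267 for *Ciart* and −0.0757 to 0.00535 for *Wee1*, and the slope on *Nr1d1* was −0.158 to 0.0352 for *Usp2*, −0.0400 to 0.123 for *Ciart*, −0.0170 to 0.0414 for *Rora* and −0.0749 to 0.0666 for *Wee1*. Over all genes, diet called 1248 alone, 2544 with strain as a block, 1967 with *Arntl* added and 2514 with both blocks. The slope called 2340, against 1382 with each strain and diet group as a block, 1021 in HP mice and 338 in HS mice. The interaction of strain and diet called 2, against 234 with array weights, and the slope difference 4, against 8 with array weights and 2 without the filter. Low signal limits *Bhlhe41* most, and then *Ciart*.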
